A study of Sus scrofa with 36 samples.

Results

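Thyroid hormone transport and receptor genes were described in the liver of 36 pigs. The members were taken from a list of 6 genes, SERPINA7, TTR, DIO1, THRA, THRB and THRSP, through the gene name, RefSeq accession or description of each array probe. A probe was kept when the scanner software called it well above background on at least 6 of the 36 arrays. This left 15 of 16 member probes and 5 of the 6 genes, out of 44796 kept probes and 11486 gene symbols in all. THRSP, a lipogenic gene induced by thyroid hormone, matched no probe, and no value is given for it. All 15 kept member probes were well above background on all 36 arrays. Most matched by gene name, THRB probe 4 matched by its accession, and DIO1 probe 3 and THRB probe 2 matched by their description only.

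The animals were castrated growing males of Large White (LW), of Creole (CR) and of their cross (F1), with 12 pigs per breed. Within each breed 6 pigs were killed under thermoneutral conditions (TN, 24 °C) and 6 after heat stress (HS), so that each temperature had 18 animals. For HS animals the temperature is 30 °C in the labels but 32 °C, held for 5 days, in the growth protocol. Per the study's methods all TN animals were killed before the heat and all HS animals after it. The study also reported a lower feed intake under heat. The temperature effect, the lower feed intake, the day of slaughter and a few days of age therefore cannot be told apart. Per the same methods the pigs were littermates in blocks and shared pens, which the labels do not give, so the animals were tested as independent. The study killed each pen at a single temperature and fitted pen, slaughter and parents as random effects. Without these effects the p-values given here for temperature may be too small.

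Thyroid hormone circulates mostly bound to proteins that the liver secretes, among them thyroxine-binding globulin, encoded by SERPINA7, and transthyretin, encoded by TTR. The liver converts the prohormone thyroxine (T4) to the active triiodothyronine (T3) with the selenoenzyme type 1 deiodinase, encoded by DIO1, whose own transcription is raised by T3. T3 acts in the nucleus through the receptors TRα, encoded by THRA, and TRβ, encoded by THRB, of which TRβ is known as the main form of hepatocytes. The genes lie on several chromosomes of the pig assembly Sscrofa11.1: SERPINA7 at X:86708624-86714324, TTR at 6:115496338-115503974, DIO1 at 6:158376744-158392745, THRA at 12:22270506-22296684 and THRB at 13:10900716-11360587. One end of THRA overlaps the gene of the circadian repressor NR1D1, at 12:22263549-22274131, over 3626 bases. The positions of the probes within these genes were not mapped.

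Each value is the signal of one 60-base oligonucleotide spotted on the array. The sequences of 5 member probes are shown, 5′ to 3′, because the results turn on differences between probes of one gene. In THRB probes 1 and 5 the capitals mark 26 bases that are each other's reverse complement, so these oligonucleotides read opposite strands.
SERPINA7 probe 1: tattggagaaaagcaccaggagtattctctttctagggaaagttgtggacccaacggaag
SERPINA7 probe 2: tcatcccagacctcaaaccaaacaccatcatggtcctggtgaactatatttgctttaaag
THRA probe 3: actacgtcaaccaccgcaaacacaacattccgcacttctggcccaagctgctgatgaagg
THRB probe 1: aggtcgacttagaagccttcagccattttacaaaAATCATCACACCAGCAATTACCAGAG
THRB probe 5: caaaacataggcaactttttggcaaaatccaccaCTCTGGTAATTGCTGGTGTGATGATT
THRB probe 1 was well above background on all 36 arrays and THRB probe 5 on 4 of 36, so that probe 5 was the member probe not kept.

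Per array, 39644 to 44025 of 60306 non-control spots were well above background. Over the kept probes, the first principal component held 18.6% of the variance and separated LW, between -44.2 and -24.8, from CR, between 2.3 and 35.4. On it 5 animals lay apart from their breed, namely LW TN replicates 1 and 6, at -4.8 and -3.0, and F1 HS replicates 1 and 2 and F1 TN replicate 3, between -21.3 and -17.0. They were kept under their labels, and values without them are given beside the calls that changed without them. The sample titles number the animals in runs by breed. LW TN replicates 1 and 6 and F1 HS replicates 1 and 2 are numbered between the other LW and the other F1 animals. Whether any of these labels were exchanged was not tested. The 5 hepatocyte markers on the array had a summed log2 signal of 87.62 to 88.79 in TN and 88.08 to 88.90 in HS. In whole liver, fewer cells of a type and less RNA per cell cannot be told apart.

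Heat stress was associated with higher signals of the thyroxine carrier gene SERPINA7 and, at 2 of 3 kept probes, of the receptor gene THRA. With limma's additive model of breed and temperature, 4 of the 15 member probes passed an adjusted p of 0.05 for HS minus TN, 2 of SERPINA7 and 2 of THRA, and all 4 were higher in HS. Over all kept probes 0.859% passed. The members were chosen with earlier results of these data known, so the comparison with this share is a description. The median log2 difference was 0.0985 over the 15 member probes and 0.0011 over all kept probes. One value per gene, the mean of its kept probes, passed for SERPINA7 and THRA and not for TTR, DIO1 or THRB.

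**Figure D1:**
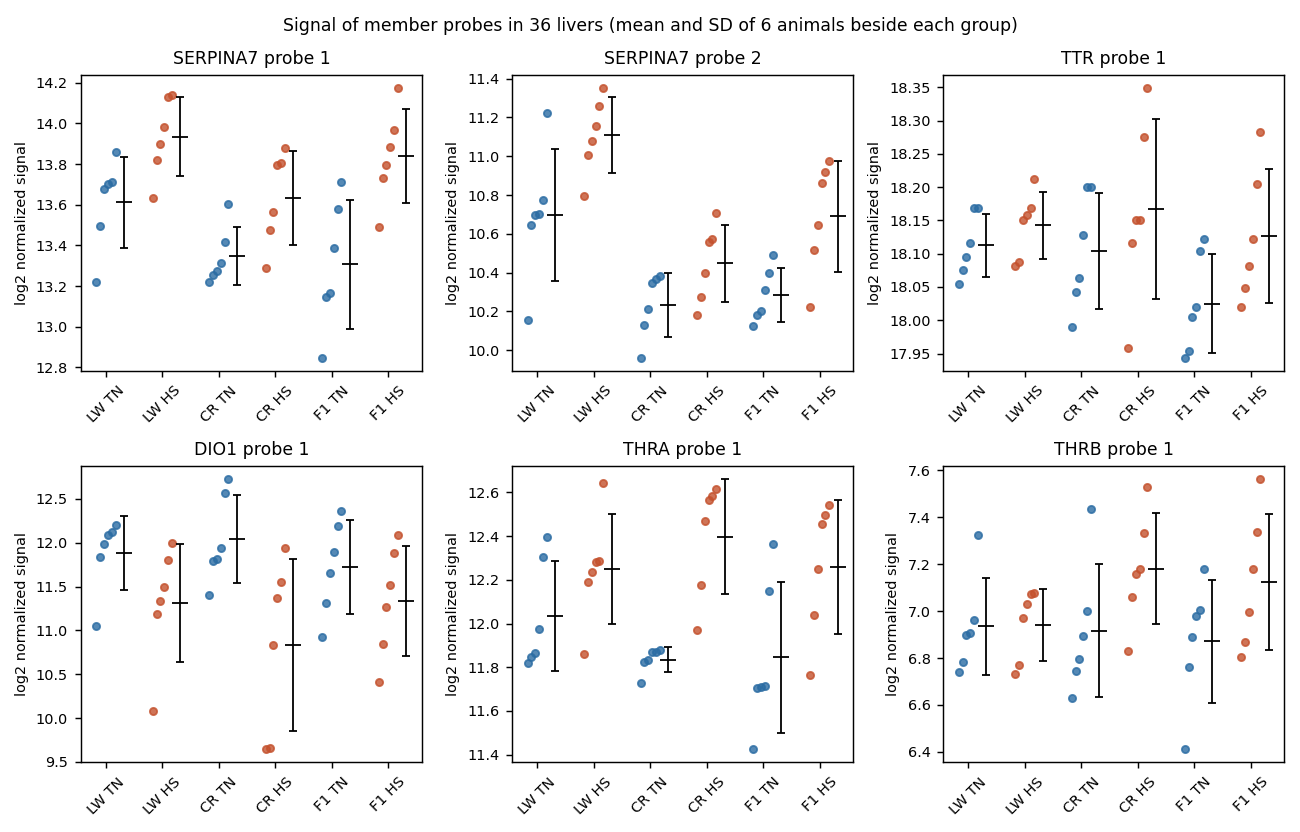
Log2 quantile-normalized signal (y axis) of 6 member probes in every animal of the 6 breed and temperature groups (x axis), with TN in blue and HS in red, each y axis on its own scale and the bar beside the points giving the mean and SD of 6 animals. SERPINA7 probe 1 and THRA probe 1 sit higher in HS than in TN in each breed, and DIO1 probe 1 runs from 9.65 to 12.72 with its lowest values in HS animals.

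SERPINA7 encodes the carrier with the highest affinity for T4. In LW, SERPINA7 probe 1 had a log2 signal from 13.22 to 13.86 with a median of 13.69 in TN, and from 13.63 to 14.14 with a median of 13.94 in HS. In CR it ran from 13.22 to 13.60 with a median of 13.29 in TN, and from 13.29 to 13.88 with a median of 13.68 in HS. In F1 it ran from 12.85 to 13.71 with a median of 13.28 in TN, and from 13.49 to 14.17 with a median of 13.84 in HS. The HS medians were the higher ones in all 3 breeds, the groups overlapped within every breed, and 17 of 18 HS animals lay above the TN mean of their own breed. Over all animals the mean was 13.42 ± 0.26 at TN against 13.80 ± 0.24 at HS (SD, n = 18 each). The log2 difference was 0.38 (SE 0.075, 95% interval 0.23 to 0.53), a 1.30-fold higher signal with limma's adjusted p of 0.00924. It was positive on each of the 5 slides, from 0.256 to 0.467 within a slide. Without slide 3 the call was lost at an adjusted p of 0.0903, with a log2 difference of 0.36.

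SERPINA7 probe 2 was also higher in HS. Its mean log2 signal was 10.41 ± 0.31 at TN against 10.75 ± 0.35 at HS (SD, n = 18 each), and 16 of 18 HS animals lay above their breed's TN mean. The log2 difference was 0.34 (SE 0.075, 95% interval 0.19 to 0.50), a 1.27-fold higher signal with an adjusted p of 0.0217 in limma. The difference within a slide lay between 0.235 and 0.457. The call was lost without the 5 animals apart on the first component, with a log2 difference of 0.24 and an adjusted p of 0.0855, and without any one of slides 2 to 5, at adjusted p of 0.0516 to 0.151. Around their group means the SERPINA7 probes moved together over the 36 animals with r = 0.731, as a description over probes that share each array.

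TTR encodes transthyretin, which carries T4 and, with retinol-binding protein, vitamin A. Its probe 1 was among the brightest on the array, between rank 42 and rank 112 of 60305 probes on the 36 arrays. TTR probe 1 had a log2 signal of 17.94 to 18.20 in TN and of 17.96 to 18.35 in HS, with means of 18.08 ± 0.08 (SD, n = 18) and 18.15 ± 0.10 (SD, n = 18). The range of TTR probe 1 over all 36 animals was 1.32-fold, against a range of 2.51-fold for SERPINA7 probe 1. Both are ranges of quantile-normalized values, which follow a probe's rank on each array. The log2 difference HS minus TN was 0.065 for probe 1 (95% interval -0.003 to 0.133), 0.058 for probe 2 and 0.049 for probe 3, with adjusted p of 0.413, 0.417 and 0.629 in limma. None of the TTR probes passed the test, and probes 2 and 3 share their first 52 bases, so they are not separate readings. The scanner software flagged no spot as saturated on any array, and whether signals as bright as those of TTR still follow transcript level was not tested.

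DIO1 encodes the deiodinase that makes T3 from T4 in the liver, and it was the most variable member. DIO1 probe 1 ran over 3.07 log2 units, an 8.42-fold range over the 36 animals. In LW its log2 signal ran from 11.05 to 12.21 with a median of 12.04 in TN, and from 10.08 to 11.99 with a median of 11.41 in HS. In CR it ran from 11.41 to 12.72 with a median of 11.88 in TN, and from 9.65 to 11.94 with a median of 11.105 in HS. In F1 it ran from 10.92 to 12.36 with a median of 11.78 in TN, and from 10.41 to 12.09 with a median of 11.39 in HS. The HS medians were the lower ones in all 3 breeds while the groups overlapped within each, and 6 of 18 HS animals lay below all TN animals. The mean was 11.88 ± 0.48 at TN against 11.16 ± 0.77 at HS (SD, n = 18 each).

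The DIO1 difference did not pass the test over all probes. The log2 difference was -0.72 for probe 1 (SE 0.208, 95% interval -1.14 to -0.30), a ratio of 0.606, with an unadjusted p of 0.00136 and an adjusted p of 0.084 in limma. Probe 2 gave -0.64 (SE 0.189, 95% interval -1.03 to -0.26) with an adjusted p of 0.0905. Both probes were lower in HS on each of the 5 slides, with probe 1 between -0.994 and -0.233 within a slide. Leaving out F1 TN replicate 5 brought the adjusted p of probe 1 to 0.0485. Probes 1 and 2 moved together over the 36 animals around their group means with r = 0.950.

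DIO1 probe 3 stood apart from the other probes of its gene. It was assigned to DIO1 through its description only, its raw signal ran from 140 to 297 intensity units, and around its group means it correlated with r = 0.132 with probe 1 and r = 0.010 with probe 2. Its log2 difference HS minus TN was 0.010 (95% interval -0.15 to 0.17) with an adjusted p of 0.978, and the sign turned under several alternative settings. Which transcript this probe reads was not tested.

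THRA encodes TRα, the receptor that predominates in heart, bone and brain. In LW, THRA probe 1 had a log2 signal of 11.82 to 12.39 with a median of 11.92 in TN, and of 11.86 to 12.64 with a median of 12.26 in HS. In CR it ran from 11.73 to 11.88 with a median of 11.85 in TN, and from 11.97 to 12.61 with a median of 12.52 in HS. In F1 it ran from 11.43 to 12.37 with a median of 11.71 in TN, and from 11.77 to 12.54 with a median of 12.35 in HS. The CR groups did not overlap, whereas those of LW and F1 did, and the share of all kept probes without such overlap was not counted. For THRA probe 1, 16 of 18 HS animals lay above their breed's TN mean. Over all animals the mean was 11.90 ± 0.25 at TN against 12.30 ± 0.27 at HS (SD, n = 18 each).

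THRA probe 1 rose by 0.40 log2 units (SE 0.0854, 95% interval 0.22 to 0.57), a 1.32-fold higher signal with an adjusted p of 0.0196 in limma. Probe 2 rose by 0.37 (SE 0.0899, 95% interval 0.19 to 0.56) with an adjusted p of 0.0367. Within each of the 5 slides both were higher in HS, by 0.317 to 0.498 for probe 1 and 0.260 to 0.540 for probe 2. The call of probe 1 was lost without any one of slides 2 to 5, at adjusted p of 0.0526 to 0.127, and that of probe 2 without any one of the 5 slides, at 0.0708 to 0.212, while the log2 differences stayed between 0.32 and 0.42. Without the 5 animals apart on the first component both probes still passed, at adjusted p of 0.0431 and 0.0453.

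THRA probe 3, whose sequence is shown, gave a log2 difference of 0.098 (95% interval -0.0001 to 0.20) with an adjusted p of 0.383. It was higher than the breed's TN mean in 16 of 18 HS animals. Its raw signal ran from 77 to 144.5 intensity units, over array backgrounds with medians of 18.0 to 25.0, and no test of the difference between probes was made. Its correlation around group means was r = 0.624 with probe 1 and r = 0.609 with probe 2. Because THRA and NR1D1 overlap, NR1D1 was read beside it. Of its 2 probes 1 was kept, and this probe was dim, with a mean log2 signal of 6.54. The kept NR1D1 probe had a log2 difference HS minus TN of 0.064 (SE 0.182) with an adjusted p of 0.93 in limma. Around the group means it correlated with THRA probe 1 with r = -0.455. The sign of the NR1D1 difference turned without slide 4. The part of NR1D1 in the THRA signal was not tested. The array annotation gives each THRA probe a different sequence record, and which THRA transcripts the probes read was not tested.

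THRB encodes TRβ, the receptor known for most T3 actions on liver metabolism and cholesterol. Its 4 kept probes were dim, with raw signals of 52 to 193 intensity units. THRB probe 1 had a log2 signal of 6.41 to 7.44 with a median of 6.90 in TN and of 6.73 to 7.56 with a median of 7.07 in HS. The groups overlapped, and 13 of 18 HS animals lay above their breed's TN mean. The log2 difference HS minus TN was 0.17 for probe 1 (95% interval 0.01 to 0.34), 0.13 for probe 2, 0.07 for probe 3 and 0.24 for probe 4 (95% interval 0.05 to 0.43), with adjusted p of 0.325, 0.602, 0.782 and 0.215 in limma. None passed, and THRB probe 2 changed sign without slide 4. Probes 1 and 2 correlated around group means with r = 0.814, whereas the other pairs of THRB probes reached r of 0.332 to 0.504.

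**Figure D2:**
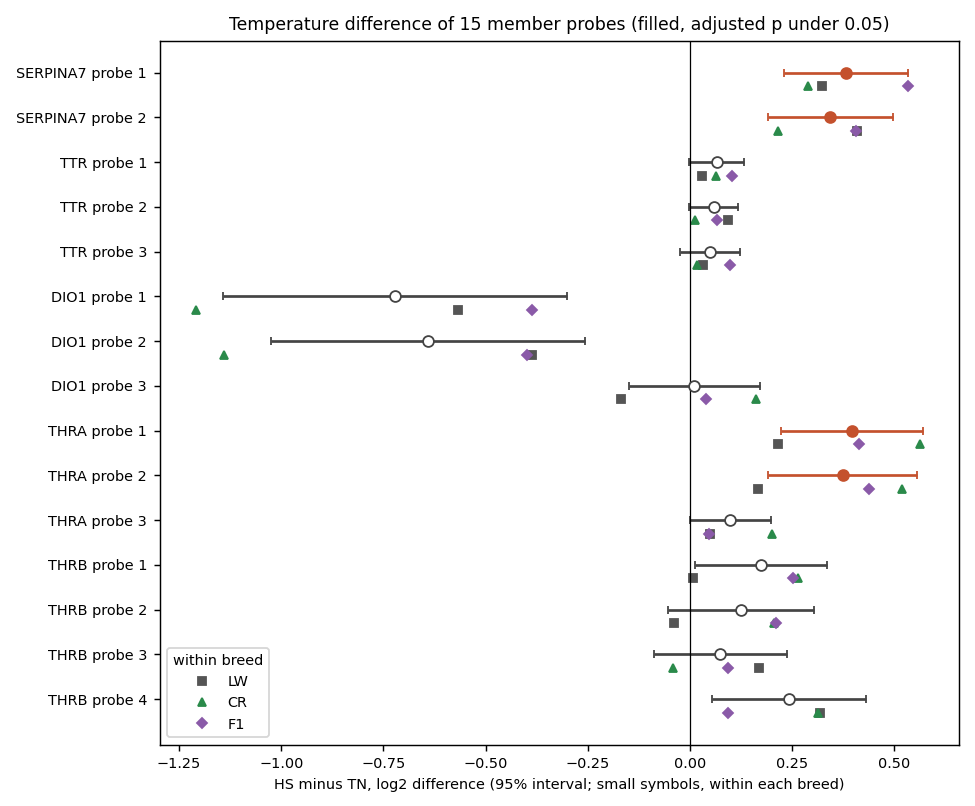
HS minus TN difference in log2 signal (x axis) of the 15 kept member probes (y axis), with circles for the additive model, bars for its 95% interval, filled circles for an adjusted p under 0.05 and small symbols for the difference within LW, CR and F1. The 4 filled probes belong to SERPINA7 and THRA, and DIO1 probes 1 and 2 lie at -0.72 and -0.64 with the widest intervals.

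Whether the breeds differed in the temperature difference was tested with an interaction F test in limma. None of the 15 member probes passed it, with an adjusted p of 0.995 for each and an unadjusted p of at least 0.179, and 0.0% of all kept probes passed, with 3.74% at an unadjusted p under 0.05. DIO1 probe 1 had within-breed log2 differences of -0.57 for LW, -1.21 for CR and -0.39 for F1, with an unadjusted interaction p of 0.243. For THRA probe 1 they were 0.22, 0.56 and 0.41, and for SERPINA7 probe 1 they were 0.32, 0.29 and 0.53, in the same order. A difference between breeds was not detectable against the spread between animals.

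Within a single breed of 6 against 6 animals no member probe passed in limma. In LW, 0.0% of all kept probes passed, and 2 member probes, both of SERPINA7, had an unadjusted p under 0.05, as did 5.12% of all kept probes. In CR, 0.0% of all kept probes passed, and 6 member probes had an unadjusted p under 0.05, namely SERPINA7 probe 1, DIO1 probes 1 and 2 and all THRA probes, as did 7.4% of all kept probes. In F1, 0.00893% of all kept probes passed, and 4 member probes had an unadjusted p under 0.05, those of SERPINA7 and THRA probes 1 and 2, as did 9.31% of all kept probes. The lowest adjusted p of a member was 0.952 for LW, 0.159 for CR and 0.183 for F1.

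Between CR and LW, SERPINA7 was the member that passed the test, with the lower signal in CR. For CR minus LW, 2 of the 15 member probes passed in limma, both of SERPINA7 and both lower, and 26.5% of all kept probes passed. SERPINA7 probe 1 had a mean log2 signal of 13.77 ± 0.26 (SD, n = 12) in LW and 13.49 ± 0.24 (SD, n = 12) in CR. The log2 difference was -0.28 (SE 0.0915), with an adjusted p of 0.0201. SERPINA7 probe 2 had a mean log2 signal of 10.90 ± 0.34 (SD, n = 12) in LW and 10.34 ± 0.21 (SD, n = 12) in CR. The log2 difference was -0.56 (SE 0.0918), a ratio of 0.677 with an adjusted p of 3.55e-05. Under HS, all 6 CR animals lay below all 6 LW animals for probe 2, between 10.18 and 10.71 against 10.80 and 11.35, whereas at TN the breeds overlapped. The share of all kept probes with such a separation was not counted. Both calls held without the 5 animals apart on the first component, at -0.33 for probe 1 and -0.64 for probe 2. That of probe 1 was lost without slide 3, at an adjusted p of 0.102.

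For F1 minus LW, 2 of the 15 member probes passed, SERPINA7 probe 2 and THRB probe 3, both lower in F1, and 18.4% of all kept probes passed. SERPINA7 probe 2 had a mean log2 signal of 10.49 ± 0.30 (SD, n = 12) in F1, with a log2 difference of -0.42 (SE 0.0918) and an adjusted p of 0.00259 in limma. SERPINA7 probe 1 gave -0.20 with an adjusted p of 0.127, and it passed with the processed signal, with median centring and with the authors' table. THRB probe 3 had a mean log2 signal of 6.75 ± 0.23 for LW, 6.63 ± 0.30 for CR and 6.45 ± 0.20 for F1 (SD, n = 12 each). Its log2 difference F1 minus LW was -0.31 (SE 0.0983), with an adjusted p of 0.0272. The other THRB probes did not pass, and the call of probe 3 was lost with the authors' table at an adjusted p of 0.0596, without slide 2, 3 or 4 at 0.112 to 0.168, and without F1 HS replicate 4.

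No member passed in the other breed comparisons in limma. For F1 minus CR, 1.5% of all kept probes passed, and no member probe had an unadjusted p under 0.05, against 12.5% of all kept probes. For F1 against the parental mean, 1.12% passed, and the single member with an unadjusted p under 0.05 was THRB probe 3, against 15.2% of all kept probes. TTR, DIO1 and THRA passed in no breed comparison with all 36 animals. Under HS alone, all 6 CR animals lay above all 6 LW animals for DIO1 probe 3, with a log2 difference of 0.32. The share of all kept probes separated in this way was not counted. Over both temperatures DIO1 probe 3 had a log2 difference CR minus LW of 0.15, with an adjusted p of 0.248 in limma. DIO1 probe 3 had a log2 difference F1 minus LW of 0.14 (SE 0.0967) with an adjusted p of 0.341, which passed without the 5 animals apart on the first component, at 0.27 with an adjusted p of 0.0457. F1 against the parental mean then passed for SERPINA7 probe 2, at -0.23 with an adjusted p of 0.0371. The mean log2 signal of DIO1 probe 1 was 11.60 ± 0.61 for LW, 11.44 ± 0.97 for CR and 11.53 ± 0.60 for F1 (SD, n = 12 each), and that of THRA probe 1 was 12.14 ± 0.26, 12.12 ± 0.35 and 12.05 ± 0.38 in the same order. The breeds overlapped in both.

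**Figure D3:**
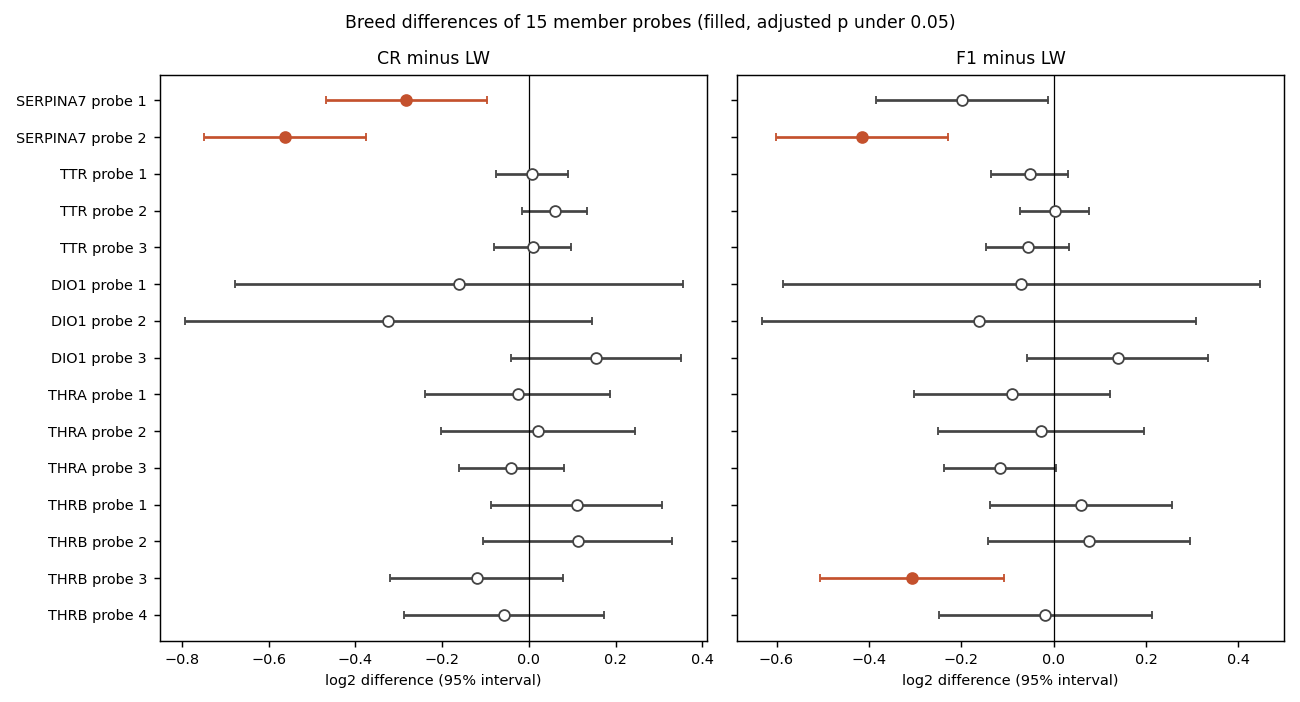
Breed differences in log2 signal (x axis) of the 15 kept member probes (y axis), CR minus LW on the left and F1 minus LW on the right, with bars for the 95% interval and filled circles for an adjusted p under 0.05. Both SERPINA7 probes lie below 0 in CR, SERPINA7 probe 2 at -0.56 and probe 1 at -0.28, and in F1 the filled ones are SERPINA7 probe 2 and THRB probe 3.

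The SERPINA7 probes did not change by the same amount between breeds. Their log2 difference within an array, probe 2 minus probe 1, was -2.87 ± 0.12 for LW, -3.15 ± 0.11 for CR and -3.09 ± 0.25 for F1 (SD, n = 12 each). The size of this value has no meaning of its own, since probes differ in brightness for reasons other than transcript level, and only its change between animals is read. It was lower by 0.28 in CR than in LW (difference -0.28, two-sided permutation p = 3e-05, adjusted p = 9e-05 over 3 pairs of breeds, labels permuted 100000 times within temperature). F1 minus LW was -0.22 (permutation p = 0.0134, adjusted p = 0.0201), and F1 minus CR was 0.06 (permutation p = 0.421). The comparison was chosen after the values of the probes were seen. For CR minus LW it gave -0.26 with the processed signal, -0.23 with the authors' table and -0.30 without the 5 animals apart. Both sequences are shown among the probe sequences. Whether sequence variants between breeds or different transcripts lie under a probe was not tested.

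Among the members, DIO1 correlated across animals with THRA negatively and with THRB positively, the latter mainly through THRB probe 1. Correlations were computed over 36 animals on the brightest kept probe of each gene after the mean of each breed and temperature group was removed, for 10 pairs of genes, with values permuted 100000 times within groups. DIO1 and THRA correlated negatively, with Pearson's r = -0.590 (permutation p = 0.00065, adjusted p = 0.0065) and Spearman's rho = -0.606 (adjusted permutation p = 0.0044). Without the 2 animals farthest from the median of DIO1, r was -0.540 (permutation p = 0.00283). With slide means removed, with the processed signal or with the authors' table it lay between -0.606 and -0.580. It was -0.440 within TN and -0.689 within HS animals, -0.722 for LW, -0.495 for CR and -0.656 for F1, and between -0.897 and -0.25 within the 5 slides. DIO1 probes 1 and 2 with the 3 THRA probes gave r of -0.730 to -0.386, while DIO1 probe 3 gave 0.081 to 0.133.

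DIO1 probe 1 and THRB probe 1 correlated positively, with r = 0.517 (permutation p = 0.00231, adjusted p = 0.0115) and rho = 0.557 (adjusted permutation p = 0.00795). This pair gave the highest r of the 12 pairs of DIO1 and THRB probes. DIO1 probes 1 and 2 had r of 0.373 and 0.255 with THRB probe 2 and of 0.081 to 0.168 with THRB probes 3 and 4, and DIO1 probe 3 ran from -0.282 to 0.249. Without the 2 farthest animals r was 0.535 (permutation p = 0.00376), and under the same 3 alternatives it lay between 0.451 and 0.564. It was 0.510 within TN and 0.553 within HS animals, 0.622 for LW, 0.372 for CR and 0.654 for F1, and 0.496 to 0.924 within the 5 slides. Without the 5 animals apart on the first component r was 0.468 for this pair and -0.621 for DIO1 with THRA (n = 31). The other 8 pairs of members had r between -0.200 and 0.258 with adjusted permutation p of 0.532 to 0.763, among them SERPINA7 with TTR at r = 0.057.

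**Figure D4:**
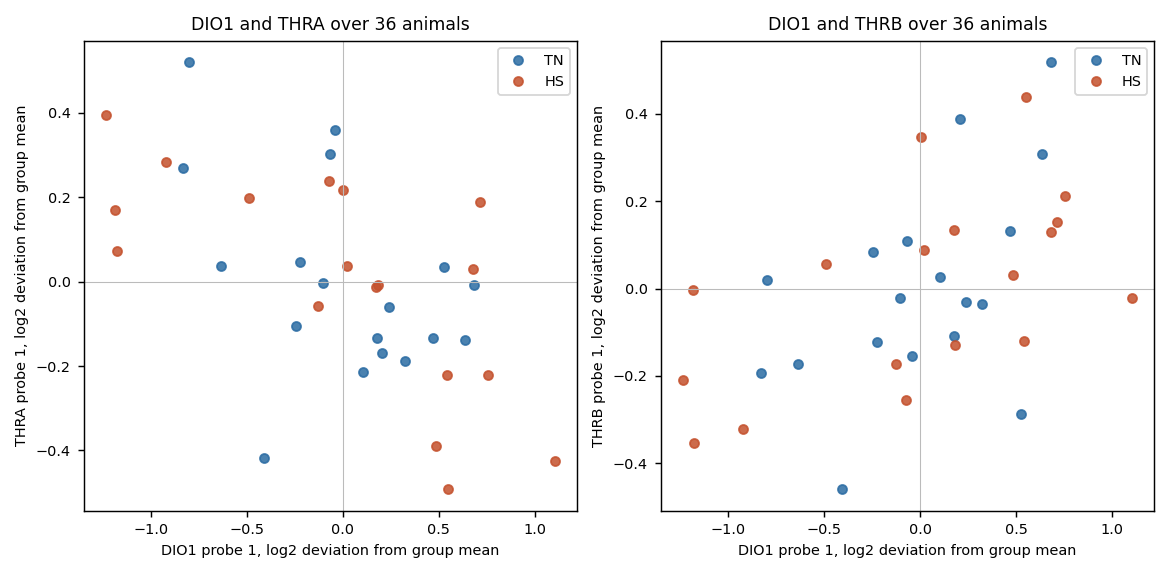
Deviation from the group mean, in log2 units, of DIO1 probe 1 (x axis) against THRA probe 1 (left, y axis) and THRB probe 1 (right, y axis), one point per animal, TN in blue and HS in red. Animals low in DIO1 tend to be high in THRA (r = -0.590, n = 36) and low in THRB (r = 0.517, n = 36).

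Genes whose signal over the 36 animals was most like that of each member were taken from 11467 symbols by Pearson's r, as a description over arrays that share breed and temperature effects. For SERPINA7 they were FHL3 (r = 0.715), NOTCH1 (0.713) and PROC (0.697), which encodes the hepatic anticoagulant protein C. For TTR they were SELP (0.671), PSAT1 (0.644) and ANXA4 (0.599). For DIO1 they were PIK3R2 (0.785), MMP11 (0.766) and ME1 (0.729), the last being malic enzyme, which supplies NADPH to lipogenesis. For THRA they were ZSCAN29 (0.712), SBDS (0.691) and LASS5 (0.680), and for THRB they were PTPRF (0.799), C3ORF63 (0.781) and AP4B1 (0.735). With the group means removed DIO1 still had r = 0.695 with PIK3R2, 0.714 with MMP11 and 0.706 with ME1.

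The other genes of the pathway were read from 5 lists, through the brightest kept probe of each symbol. The lists were chosen with earlier results of these data known, so their counts are a description. Over all 11486 symbols 0.94% passed for HS minus TN and 25.9% for CR minus LW. For HS minus TN, 0 of 9 measured genes of hormone entry and binding, 0 of 6 liver-made carriers, 0 of 8 genes of deiodination and conjugation and 0 of 18 receptor partners and coregulators passed in limma. At an unadjusted p under 0.05 the counts were 0, 2, 1 and 2 in the same order, and the share over all symbols was 13.7%. Of the liver-made carriers SERPINA11, a serpin related to SERPINA7, had a log2 difference of 0.31 (SE 0.101) with an adjusted p of 0.125, and 18 of 18 HS animals lay above their breed's TN mean. The vitamin D carrier GC had 0.12 (SE 0.0339) with an adjusted p of 0.0896, in 16 of 18 animals. The retinol carrier RBP4, the partner of transthyretin, had 0.041 with an adjusted p of 0.751, and the cortisol carrier SERPINA6 had 0.051 with an adjusted p of 0.853.

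Among 21 measured liver genes known to respond to T3, KLF9 and ME1 fell with heat stress and none rose in limma, and the call of ME1 depended on the setting. These are 2 of 21 genes, against 0.94% of all symbols. In limma 7 of the 21 had an unadjusted p under 0.05, against 13.7% of all symbols. Because the list was chosen with earlier results known, both shares describe it and are no test of it. KLF9, a transcription factor gene induced by T3 and also by glucocorticoids, had a mean log2 signal of 12.57 ± 0.31 at TN against 11.94 ± 0.37 at HS (SD, n = 18 each). Its log2 difference was -0.63 (SE 0.11), with an adjusted p of 0.00462, and 1 of 18 HS animals exceeded its own breed's TN mean. ME1 had a log2 difference of -0.53 (SE 0.136), with an adjusted p of 0.0492, and its call was lost without any one of the 5 slides and in 7 of 13 other settings, among them the authors' table, the processed signal, median centring and no filter on dim probes. Without the 5 animals apart it was -0.48 with an adjusted p of 0.091. The bile acid enzyme CYP7A1 had -0.75 (SE 0.238, adjusted p = 0.117) and the fatty acid oxidation enzyme CPT1A had -0.67 (SE 0.238, adjusted p = 0.168). The median log2 difference was -0.12 over the 21 genes and -0.0036 over all symbols.

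**Figure D5:**
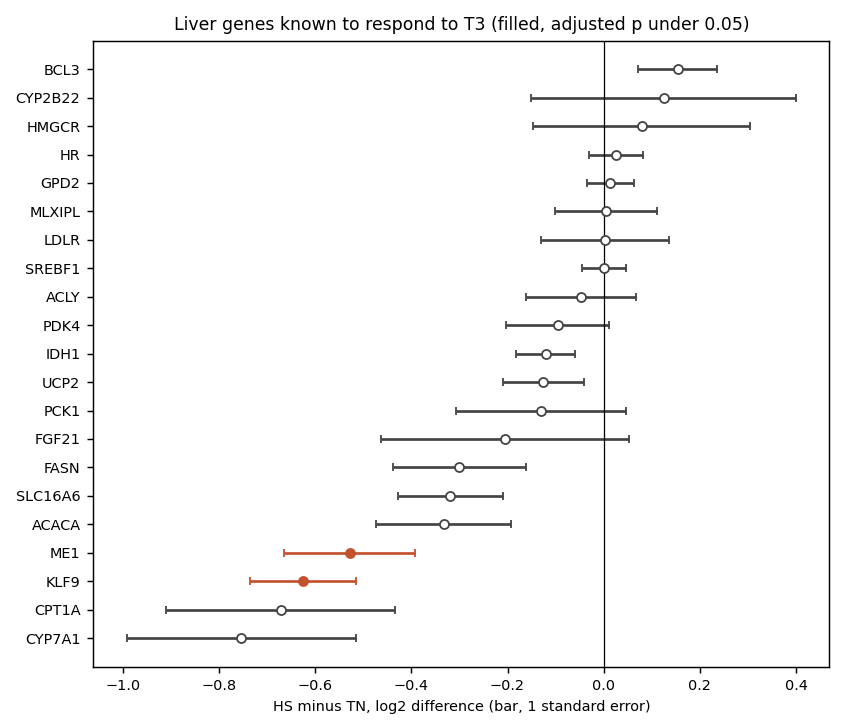
HS minus TN difference in log2 signal (x axis) of the 21 measured liver genes known to respond to T3 (y axis), ordered by the difference, with bars for 1 standard error and filled circles for an adjusted p under 0.05. KLF9 at -0.63 and ME1 at -0.53 are the filled ones, and the differences run from -0.75 for CYP7A1 to 0.15 for BCL3.

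Between CR and LW the lists moved more. Of the 9 genes of hormone entry and binding 2 were lower in CR, the organic anion transporters SLCO2B1, by a log2 difference of -0.65 (SE 0.128, adjusted p = 0.000337), and SLCO1A2, by -0.32 (SE 0.103, adjusted p = 0.0185). Of the 6 liver-made carriers 3 were lower in CR, AFM by -0.32 (adjusted p = 0.0194), SERPINA11 by -0.35 (adjusted p = 0.0318) and GC by -0.11 (adjusted p = 0.0434), and none was higher. The calls of SERPINA11 and GC were each lost in 4 of 5 fits that left out a slide, with GC at -0.070 (adjusted p = 0.321) without slide 4. Of the 8 genes of deiodination and conjugation UGT1A6, a glucuronidating enzyme, was lower, by -0.25 (adjusted p = 0.0116). These shares are to be read against 25.9% of all symbols.

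Of the 18 receptor partners and coregulators 7 were higher in CR and none was lower, with a median log2 difference of 0.15 against -0.0073 over all symbols. They included RXRA, the dimerization partner of both receptors, at 0.27 (SE 0.0675, adjusted p = 0.00278), the coactivator NCOA2 at 0.36 (SE 0.0914, adjusted p = 0.00357), and the corepressor complex subunits GPS2 at 0.19 (adjusted p = 0.00481) and TBL1XR1 at 0.30 (adjusted p = 0.0239). NCOR1, NCOA1 and EP300 were the others. Of the 21 T3-responsive genes 4 were higher in CR and none was lower, against 25.9% of all symbols called in either direction. They were the lipogenic MLXIPL at 0.58 (SE 0.13, adjusted p = 0.00124), FASN at 0.59 (SE 0.168, adjusted p = 0.00834) and ACACA at 0.54 (SE 0.172, adjusted p = 0.0179), and CYP2B22, a cytochrome P450, at 1.30 (SE 0.336, adjusted p = 0.00425).

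Markers of other cell types were read beside these comparisons. For HS minus TN no marker passed in any of 9 lists, hepatocyte, Kupffer, stellate, endothelial, cholangiocyte, lymphocyte, erythroid, thyroid gland and pancreas, and 4 of 41 measured markers had an unadjusted p under 0.05, against 13.7% of all symbols. The pancreas marker PRSS1 had no probe, and the thyroid gland marker TSHR and the pancreas marker PNLIP had none that was kept. Other listed markers of hepatocytes, Kupffer cells, endothelium, erythroid cells and thyroid gland were not measured either. For CR minus LW the marker counts are to be read against 25.9% of all symbols that passed in limma. Of 5 measured Kupffer cell markers 4 were lower in CR. Their summed log2 signal was 48.01 to 50.12 in CR and 50.41 to 54.18 in LW, which did not overlap. Of 5 measured endothelial markers 4 were lower, with sums of 45.66 to 49.07 in CR and 47.41 to 50.84 in LW. Of 5 hepatocyte markers 2 were lower, with sums of 87.62 to 88.78 in CR and 88.32 to 88.90 in LW, of 6 lymphocyte markers 2 were lower, and of 5 cholangiocyte markers 1 was higher. No stellate, erythroid, thyroid gland or pancreas marker passed. The part of these cell types in the breed difference of SERPINA7 was not tested.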

How the data were processed

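Liver RNA of 36 pigs was hybridised to 1-colour Agilent pig arrays. The authors deposited scanner tables of linear spot intensity, written by Agilent Feature Extraction 10.10.1.1 and not normalized between arrays, and a table of log2 values that is quantile normalized per the study's methods. That table is centred per probe and was used as an alternative. Here the median signal was log2 transformed and quantile normalized over 60306 non-control spots. The 107 non-uniform spots were set as missing. Of 60305 probes 44796 (74.3%) were kept. Median signal per array was 70.0 to 92.0 intensity units, and the number of arrays sets the precision. Arrays lay on 5 slides with TN and HS equal on each, and slide 1 held 4 arrays.

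Tests used lmFit and eBayes of limma 3.58.1 under R 4.3.3 (breed and temperature as fixed effects, a means model of the 6 groups for the interaction and within-breed contrasts, Benjamini-Hochberg adjustment over kept probes, threshold 0.05). Fits were tested on simulated data. The study's random effects of pen, slaughter, father and mother are not in the labels used here. Gene coordinates are those of Sscrofa11.1 in RefSeq, and probe sequences come from the scanner tables. Some items are not reported here.

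The members and lists were chosen with earlier results of these data known. All member probes are named. From each list the genes past the threshold are named, at most 4 by adjusted p, and NR1D1 as the overlapping gene. Other genes named from the lists, namely RBP4, SERPINA6, CYP7A1, CPT1A, BCL3 and the remaining coregulators, were chosen after their values were seen, as were the HS minus TN values of SERPINA11 and GC. The brightest kept probe stands for a gene. Alternatives were other background corrections and scalings, the authors' table, other filters, slide as a block, array weights, one value per gene, a robust spread, and fits without single animals or slides.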

Additional observations from a re-analysis of the deposited data

Results flagged for a closer look

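In a check of the highest and lowest animal of each group for every member probe, 4 of 90 checks placed an animal far from the others, where chance gives about 4.5. DIO1 probe 1 was lowest in LW TN replicate 1, at a log2 signal of 11.05 with the next animal at 11.84, and the gap was 0.683 of the group's range. THRA probe 1 was lowest in CR TN replicate 6, at 11.73 with the next at 11.83 and a gap of 0.638. THRB probe 2 was highest in LW TN replicate 6, at 7.08 with the next at 6.63 and a gap of 0.627. THRB probe 3 was lowest in LW TN replicate 1, at 6.24 with the next at 6.64 and a gap of 0.633. LW TN replicates 1 and 6 were also among the animals that lay apart from their breed on the first component.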

How the results depend on the processing

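The 4 member probes called for HS minus TN became 2 genes with one value per gene (SERPINA7 and THRA), 1 probe without slide 2, 4 or 5, 0 without slide 3 (limma, with 8 at an unadjusted p under 0.05), and 3 to 5 when single animals were left out. For CR minus LW the 2 calls became 1 with one value per gene, without the other factor, or without slide 3. For F1 minus LW the 2 calls became 1 with one value per gene, without slide 2 or slide 4, 0 without slide 3 (limma, with 2 at an unadjusted p under 0.05), 3 with the processed signal, with median centring or without the 5 animals apart, and 1 to 2 when single animals were left out. F1 against the parental mean gave 1 call without the 5 animals apart on the first component (SERPINA7 probe 2, log2 difference -0.2277, adjusted p 0.0371), and HS minus TN within CR gave 0 to 1 with single animals left out (THRA probe 1 without CR HS replicate 2). DIO1 probe 3 turned to -0.001 with the authors' table, -0.0151 with array weights, and -0.0005, -0.0001 and -0.0045 without slides 2, 4 and 5, and ranged from -0.0187 to 0.0432 with single animals left out. THRB probe 2 turned to -0.0038 without slide 4, and NR1D1 to -0.2071 without slide 4, with a range of -0.0203 to 0.1337 with single animals left out. THRA probe 2 lost its call in 13 of 36 fits that left out an animal, GC in 14, SERPINA11 in 8 and ME1 in 30, GC was also lost in 3 and SERPINA11 in 2 of 13 other settings, while KLF9 kept its call in every alternative run. When single slides were left out, calls of SLCO1A2, AFM, SERPINA11, GC, UGT1A6, RXRA, GPS2, TBL1XR1, CYP2B22, FASN and ACACA were each lost at least once. Of 54 breed differences not printed, 36 changed sign under some alternative. Why calls moved was not tested, except that leaving out slides leaves fewer animals. No paired analysis was possible because replicate numbers follow accession order only. Low signal over background limits THRA probe 3 and THRB.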
